A study of Mus musculus with 12 samples.

Results

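The splicing factors and heterogeneous nuclear ribonucleoproteins (hnRNPs) were followed as 67 genes among 12955 in a table of RNA levels from mouse primordial germ cell-like cells (PGCLCs), the cultured counterparts of embryonic germ cell precursors. Members were the rows with a symbol that starts with Srsf, Sf3a, Sf3b, Snrp, Hnrnp, Prpf or U2af, leaving out the imprinted gene Snrpn, and with a level of at least 1 FPKM (fragments scaled to transcript length and library size) in at least 2 of 12 libraries. They comprised 11 Snrp genes, 9 Sf3a and Sf3b genes, 3 U2af genes, 13 Prpf genes, 11 Srsf genes and 20 hnRNP genes. All cells derived from the male J1 embryonic stem cell strain, and the PGCLCs were sorted from embryoid bodies by the surface markers CD61 and SSEA1. Each of the 6 groups held 2 libraries of poly(A) RNA. These were OE and EV at day 6, OE at day 2, cells given dTAG13 for 2 days, cells given DMSO for 2 days, and EV at day 2. The labels abbreviate OE and EV without spelling them out, state no promoter or clone, and list no treatment for these cells. dTAG13 is a small molecule that brings a protein carrying a matching tag to degradation, and DMSO is its solvent. Tex10, a nuclear protein linked to ribosome maturation, is the gene the series is about.

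Splicing removes introns from pre-mRNA in a machine of small nuclear ribonucleoproteins (snRNPs), which are short RNAs wrapped in a ring of Sm proteins and joined by particle-specific proteins. U2AF marks the end of the intron, the SF3a and SF3b complexes anchor the U2 snRNP at the branch point, and the Prpf proteins build and drive the later complexes. SR proteins mostly favour exon inclusion, and hnRNPs coat nascent RNA and often oppose inclusion. Loss of several of these genes is known to stop early mouse development.

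Tex10 RNA followed the labels. It stood at 259 and 269 FPKM in day 6 OE, against 65.7 and 81.5 in day 6 EV, and at 403 and 378 in day 2 OE, against 119 and 145 in day 2 EV. With dTAG13 it stood at 45.2 and 36.5, against 61.7 and 56.8 with DMSO. Its row overlaps an exon of the antisense gene Invs, and a degrader acts on protein, so RNA is no measure of the degradation. The library D2_dTAG replicate 1 stood apart from the rest: 2008 rows (15.5%) were listed at 0 there, against 18 to 127 in the other 11 libraries. Calls of dTAG13 are therefore given with and without it. Counts over the members, and over families in the day 6 against day 2 comparisons, are so given where it moves them by over 1.5 times. In the other comparisons calls are not split by family without it, and family counts moved there too, among the hnRNPs for instance. The germ cell-like markers (8 of 8 in the table) summed to 144 to 274 FPKM and the pluripotent markers (7 of 7) to 1634 to 2225. Of the fibroblast markers 1 of 7 was in the table, summing to 0 to 0.834 FPKM. Depth per library is unknown, summed FPKM ran from 550230 to 673435, and nothing shows that the libraries of a group came from separate cultures, so p-values may measure technical spread.

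The members were abundant. The median of their mean levels was 74.1 FPKM, a value per transcript length, against 10.5 FPKM over the 12059 genes tested. A mean of at least 100 FPKM was reached by 28 of the 67 members, against 1194 of the 12059 genes. The Snrp family stood highest with a median of 236 FPKM, and 10 of its 11 genes were at or over 100. Its top member was Snrpe, an Sm ring protein, at a mean of 868 FPKM over the 12 libraries. Hnrnpa1, which binds exonic and intronic silencer elements, led the hnRNPs at 617 FPKM. Sf3b5, a small SF3b subunit, averaged 418, Srsf5 averaged 389.7, and U2af1, which contacts the last bases of the intron, averaged 366. Prpf38a, a protein of the pre-catalytic spliceosome, led the Prpf genes at 93.6. The lowest member was Srsf12 at 1.06 FPKM, and it was at or over 1 FPKM in 5 libraries. All 67 rows that match the symbols passed the low-value filter, so none lay just outside it.

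**Figure D1:**
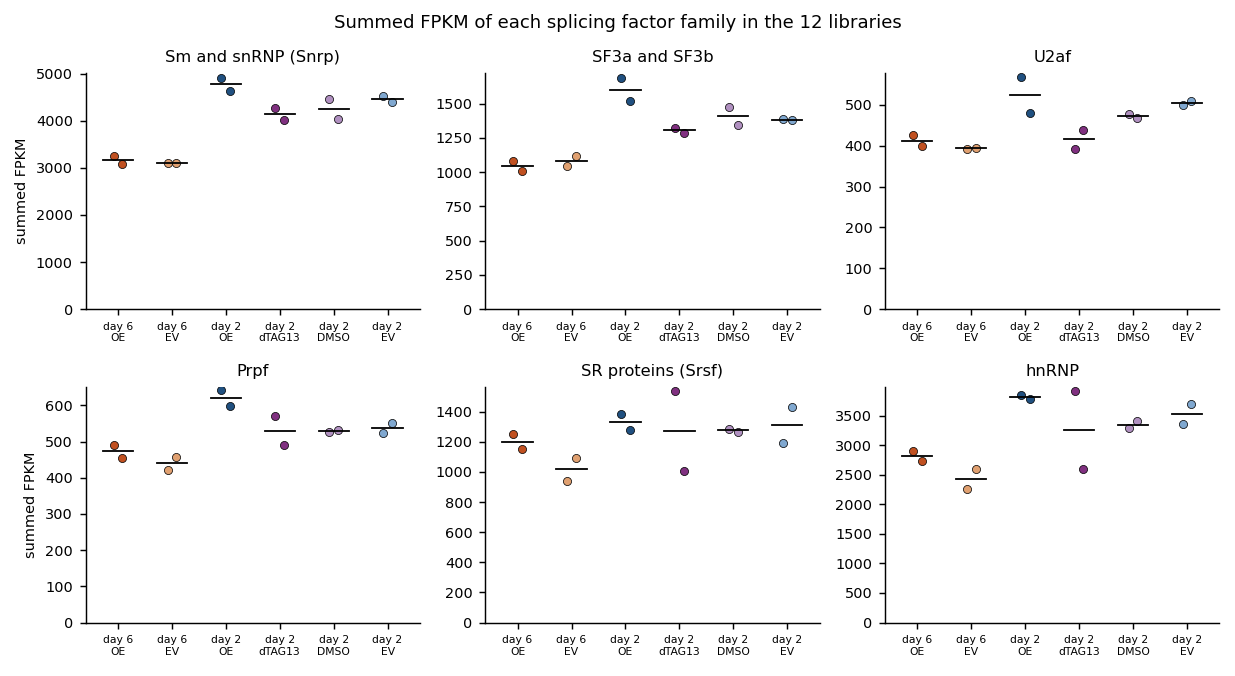
Summed FPKM (vertical axes, from 0) of each of the 6 families in the 12 libraries. Points are libraries and lines are means of 2; the 4 day 6 libraries lie between 3075 and 3254 for the Snrp family, all under the 8 day 2 libraries.

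At day 6 more members fell than rose against day 2, in EV and in OE cells, and most did not pass the test. In EV cells 24 of 67 members fell (35.8%) and 0 rose, while among all genes tested 10.5% fell and 13.3% rose. In OE cells 19 fell and Hnrnph3 rose (29.9% called), while 14.7% of all genes fell and 17.5% rose. The median log2 change of the members was -0.37 in EV cells, against 0.04 over all genes, and -0.29 in OE cells, against 0.08 over all genes. A gene was called where the Benjamini-Hochberg adjusted p of limma's test over all genes was below 0.05. Changes were computed as log2(FPKM + 1), so those of low genes come out too small. Summed over the 67 members, FPKM was 9402 and 8813 in day 6 OE, against 13041 and 12292 in day 2 OE. The sum was 8172 and 8762 in day 6 EV, against 11468 and 11976 in day 2 EV. As a share of all FPKM the members made up 1.49% to 1.60% at day 6, against 1.67% to 2.00% in the 8 day 2 libraries, with no overlap.

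The EV and OE time comparisons have no library of their groups in common. Both use the spread of each gene estimated over all 6 groups, so their calls are not independent. Members lower in both numbered 16 (23.9%), while 7.79% of all genes tested were lower in both. These are 66.7% of the members' EV list and 84.2% of their OE list, and the same shares over all genes were 74.3% and 52.9%. Estimates were negative in both for 54 members (80.6%), against 35.1% of all genes, and positive in both for 6 (8.96%), against 43.6%. All 4 day 6 libraries were below all 8 day 2 libraries for 16 members (23.9%), against 9.08% of all genes tested, and were above them for 0 members, against 16.4% of all genes. Both day 6 libraries were below both day 2 libraries for 48 of 67 members in EV cells, against 33% of all genes, and above for 4, against 39.9%. In OE cells they were below for 44, against 35.9% of all genes, and above for 8, against 46%. RNA from bulk cells cannot tell fewer cells of a type apart from less RNA per cell. The counts moved with the libraries: without D2_dTAG replicate 1, which enters through the shared estimate of spread, 39 members fell and 3 rose in EV cells, and 32 fell and 5 rose in OE cells, while 52.1% and 58.8% of all genes were called (22.7% and 25.7% lower). Leaving out 1 EV library leaves a group of 1 library and gave fewer calls than the main fit, all lower. The share of all genes called in those fits is not given here. The median of the members was then between -0.42 (without day 2 replicate 1) and -0.31 (without day 2 replicate 2). Endoderm markers (2 of 6 in the table; Sox17, Foxa2, Afp and Cer1 were not) summed to 4.19 to 6.39 FPKM at day 6, against 0 to 1.23 at day 2. Endothelial and blood markers (2 of 5; Cdh5, Tal1 and Hbb-bh1 were not in the table) summed to 64.2 to 113 FPKM at day 6, against 32.2 to 66.3 at day 2. Nearly all of that sum was the single gene Pecam1, at 63.1 to 112 FPKM at day 6, against 31.4 to 66.0 at day 2. Gata1 stood at 1.14 to 1.34 FPKM at day 6, against 0.0192 to 1.56 at day 2. Neural markers (4 of 5) summed to 51.7 to 75.4 FPKM at day 6, against 54.6 to 132 at day 2. Most of that sum was the single gene Tubb3, at 43.97 to 65.7 FPKM at day 6, against 42.7 to 124.9 at day 2. The neural markers went both ways. In EV cells Ncam1 rose (1.49), Neurod1 (-1.31) and Tubb3 (-0.55) fell, and Pax6 was not called. In OE cells Ncam1 rose (1.06), and Tubb3 (-1.42), Neurod1 (-1.02) and Pax6 (-0.80) fell. Of the 8 germ cell-like markers, Nanos3 (-2.42), Dppa3 (-1.64) and Tfap2c (-1.05) fell in EV cells at day 6, and Kit (1.26) rose. In OE cells Nanos3 (-1.82) and Dppa3 (-0.82) fell, and Kit (1.89), Itgb3 (1.37) and Prdm14 (0.88) rose. The part of all these markers in the lower splicing levels was not tested.

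**Figure D2:**
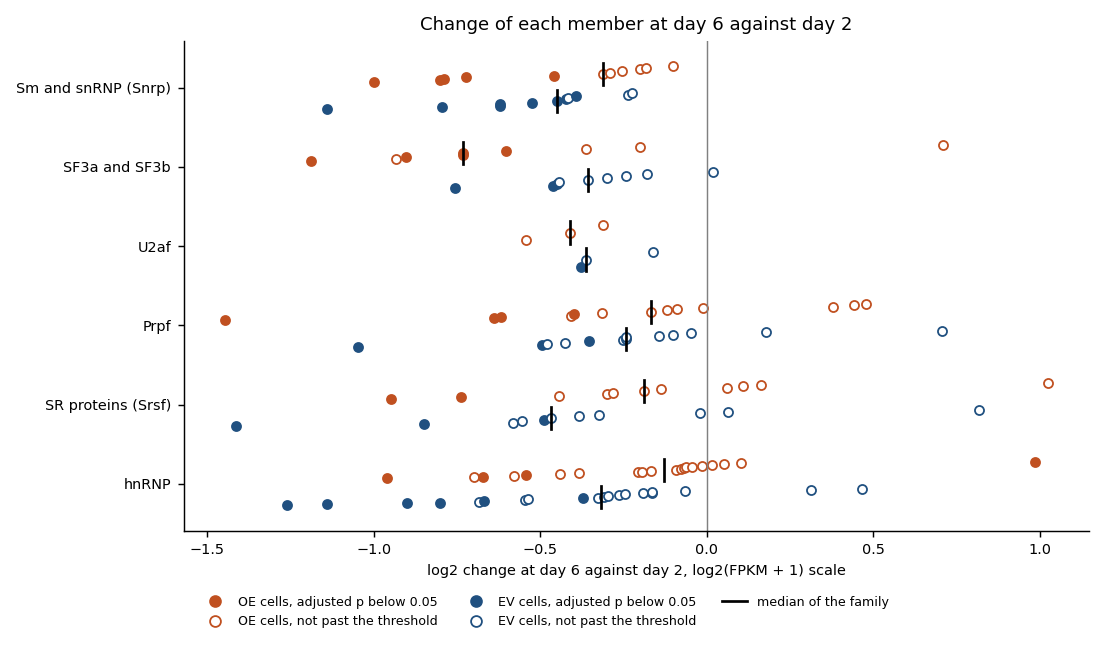
Log2 change of each member at day 6 against day 2 (horizontal axis, log2(FPKM + 1) scale) by family, with OE cells above EV cells in each row. Filled points passed the threshold and vertical strokes are family medians, which lie at -0.45 (EV) and -0.31 (OE) for the Snrp genes, left of 0.

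The Snrp family held the largest share of calls in EV cells. There 8 of 11 Snrp genes fell (72.7%), with a family median of -0.45. These were the genes of the whole Sm ring, Snrpb, Snrpd1, Snrpd2, Snrpd3, Snrpe, Snrpf and Snrpg, and Snrpa, which encodes a protein of the U1 snRNP. In OE cells 5 of 11 fell, all Sm genes (Snrpb, Snrpd2, Snrpd3, Snrpe and Snrpg), with a family median of -0.31. All 11 estimates were negative in both. Of all genes tested 10.5% fell in EV cells and 14.7% in OE cells, the shares against which each family's counts are read.

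Snrpb stood at 403 and 354 FPKM in day 6 OE, against 796 and 716 in day 2 OE. In EV cells it stood at 449.7 and 413 at day 6, against 647 and 537 at day 2. Every day 6 library was below every day 2 library, those with dTAG13 (691 and 726) and DMSO (629 and 545) included. Snrpb fell by 0.998 in OE cells (SE 0.12, adjusted p = 0.00029) and by 0.45 in EV cells (SE 0.12, adjusted p = 0.0245). Snrpd2 stood at 425 and 375 FPKM in day 6 OE, against 759 and 629 in day 2 OE. It stood at 372 and 374 in day 6 EV, against 648 and 648 in day 2 EV. The groups did not overlap, and the estimates were -0.79 in OE cells (SE 0.12, adjusted p = 0.000973) and -0.79 in EV cells (SE 0.12, adjusted p = 0.00165). Snrpg, another ring subunit, stood at 419 and 417 FPKM in day 6 OE, against 707 and 674 in day 2 OE. In EV cells it stood at 464 and 424 at day 6, against 694 and 673 at day 2. It fell by 0.72 in OE cells (SE 0.09, adjusted p = 0.000401) and by 0.62 in EV cells (SE 0.09, adjusted p = 0.00157). Snrpe stood at 684 and 711 FPKM in day 6 OE, against 905 and 1016 in day 2 OE, and at 752 and 772 in day 6 EV, against 1035 and 1006 in day 2 EV.

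Snrpf and Snrpd1 passed the threshold in EV cells alone. Snrpf stood at 53.4 and 66.3 FPKM in day 6 EV, against 115 and 152 in day 2 EV (-1.14, SE 0.30, adjusted p = 0.0221). In OE cells it stood at 111 and 92.2 at day 6, against 137 and 112 at day 2 (-0.29, adjusted p = 0.504). Each EV and OE pair of days was free of overlap, but the OE gap was narrow. Snrpf lost its EV call without any 1 of the 4 EV libraries (adjusted p = 0.0546 to 0.15), and its exons overlap those of Ccdc38 on the other strand. The difference between the lines in the day change was 0.85 for Snrpf (SE 0.43, adjusted p = 0.525) and 0.52 for Snrpd1 (SE 0.25, adjusted p = 0.501), not past the threshold. Of the proteins special to single particles, the U1 gene Snrpc and the U2 genes Snrpa1 and Snrpb2 did not pass the threshold at either line, with estimates of -0.18 to -0.42.

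**Figure D3:**
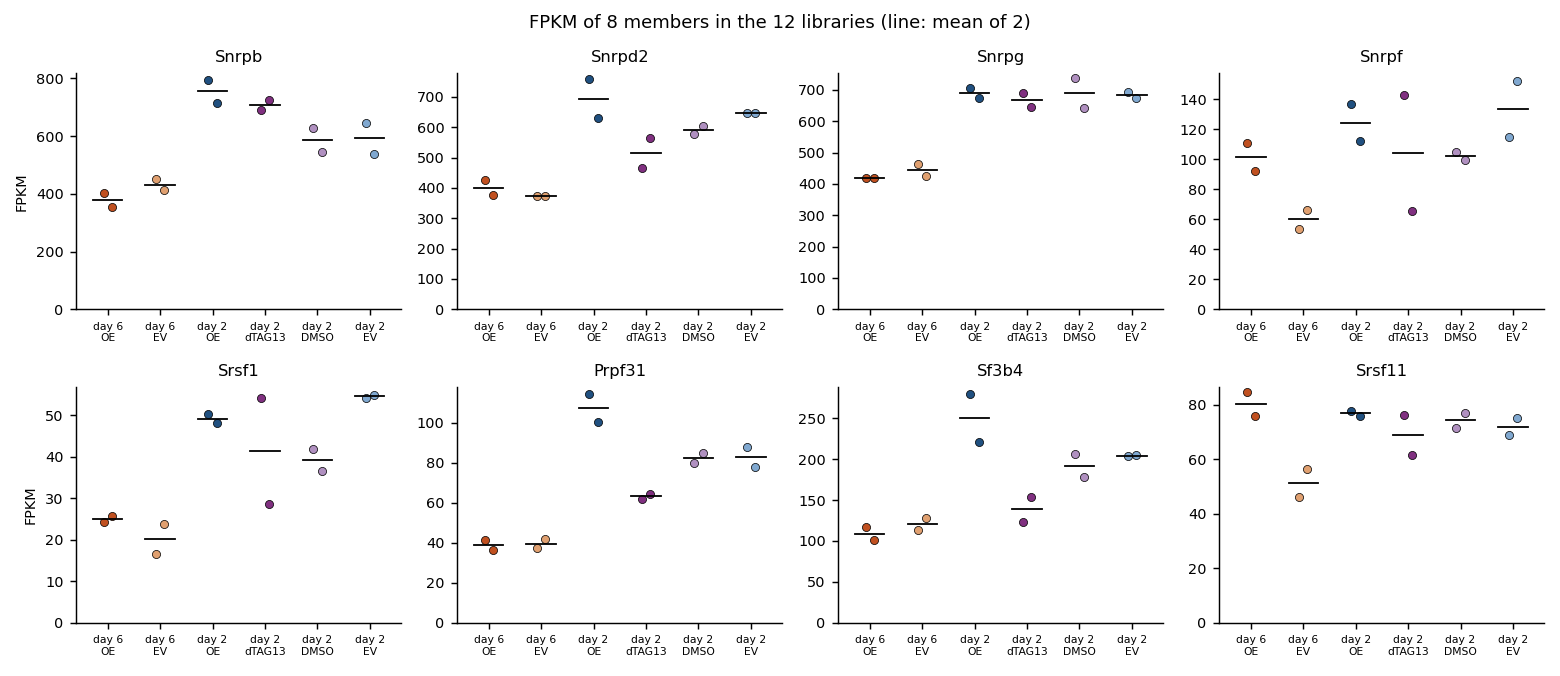
FPKM of 8 members (vertical axes, from 0) in the 12 libraries, with day 6 groups on the left and the mean of each pair as a line. For Snrpb, Snrpd2, Snrpg, Srsf1 and Prpf31 all 4 day 6 libraries lie under all 8 day 2 libraries; for Srsf11 day 6 OE (84.8 and 75.8) does not.

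Promoter sequence is shown for 4 genes that fell in both lines, since these members moved together. They are Snrpg (chr6:86371290-86371569, plus strand), Snrpd2 (chr7:19149588-19149867, plus strand), Snrpe (chr1:133610251-133610530, minus strand) and Prpf31 (chr7:3629735-3630014, plus strand), chosen after their values were seen. The sequences are from RefSeq on GRCm38.p6, 280 bases each, running from 250 before the start annotated by RefSeq to 30 after it. The GENCODE M21 annotation puts the start farther upstream for Snrpg (chr6:86371304), Snrpd2 (chr7:19149722) and Snrpe (chr1:133610291). These starts lie inside the printed windows, and the marked motifs of these genes lie within the gene by that annotation. Capitals mark matches to the motifs searched.
Snrpg: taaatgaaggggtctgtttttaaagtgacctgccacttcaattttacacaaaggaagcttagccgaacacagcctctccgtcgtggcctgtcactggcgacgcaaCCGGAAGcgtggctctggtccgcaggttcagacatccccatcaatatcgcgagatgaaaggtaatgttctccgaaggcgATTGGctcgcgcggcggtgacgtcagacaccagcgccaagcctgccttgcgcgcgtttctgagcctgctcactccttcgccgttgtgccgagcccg
Snrpd2: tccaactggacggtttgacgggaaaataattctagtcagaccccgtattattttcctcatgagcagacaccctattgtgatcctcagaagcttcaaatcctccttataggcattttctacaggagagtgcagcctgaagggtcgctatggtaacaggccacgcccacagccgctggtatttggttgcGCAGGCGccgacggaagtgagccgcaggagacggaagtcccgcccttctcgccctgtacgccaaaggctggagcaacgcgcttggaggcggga
Snrpe: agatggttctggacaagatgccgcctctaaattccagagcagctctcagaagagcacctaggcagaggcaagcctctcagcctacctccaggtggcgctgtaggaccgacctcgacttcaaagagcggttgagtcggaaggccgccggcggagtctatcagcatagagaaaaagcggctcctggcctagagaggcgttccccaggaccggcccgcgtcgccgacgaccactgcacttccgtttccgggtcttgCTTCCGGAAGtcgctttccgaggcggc
Prpf31: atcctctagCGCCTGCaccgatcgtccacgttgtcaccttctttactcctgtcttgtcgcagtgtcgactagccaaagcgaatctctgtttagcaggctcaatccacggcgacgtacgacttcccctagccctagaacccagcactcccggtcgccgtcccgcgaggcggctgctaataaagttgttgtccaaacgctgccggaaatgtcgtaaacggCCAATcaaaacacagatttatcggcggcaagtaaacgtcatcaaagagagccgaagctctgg

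RefSeq promoters of 300 bases were found for 58 of the 67 members, and 6 motifs were searched on both strands. None of these 6 contains another. The ETS core CCGGAAG, in capitals in Snrpg and, as a match on both strands that overlap, in Snrpe, was in 32.8% of member promoters. The share was 19% in promoters of the genes tested and 9.14% in all 27025 promoters. The NRF1 core GCANGCG, in capitals in Snrpd2 and near the left end of Prpf31, was in 37.9% of member promoters, 31.2% of those of genes tested and 16.8% of all. The CCAAT letters, in capitals in Prpf31 and on the other strand in Snrpg, were in 48.3%, against 39.4% of genes tested and 38% of all. CACGTG was in 13.8%, against 10.7% and 7.24%. AAGATGG, a YY1 core, was in 5.17%, against 7.42% and 6.46%. TATAAA was in 10.3%, against 6.64% and 14.2%. Among the members that fell in both lines 14 had a promoter, and 35.7% of these held the ETS core, against 31.8% of the other members. The NRF1 core was in 57.1% of them, against 31.8% of the other members. A match describes letters in a window and does not show binding.

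The SF3a and SF3b genes, which hold the U2 snRNP on the branch point, had the lowest family median in OE cells. There 5 of 9 fell (Sf3b4, Sf3b3, Sf3a3, Sf3b5 and Sf3a1) and the median was -0.73. In EV cells 3 of 9 fell (Sf3b4, Sf3b3 and Sf3a3) and the median was -0.36. Leaving out D2_dTAG replicate 1 gave 6 lower in EV cells, and 7 lower and 1 higher in OE cells. Sf3b4 stood at 117 and 101 FPKM in day 6 OE, against 280.0 and 221 in day 2 OE. In EV cells it stood at 114 and 128 at day 6, against 203 and 205 at day 2. The day 6 libraries were lower without overlap, and Sf3b4 fell by 1.19 in OE cells (SE 0.15, adjusted p = 0.000378) and by 0.76 in EV cells (SE 0.15, adjusted p = 0.00601). Sf3b3, a large SF3b scaffold subunit, stood at 142 and 133 FPKM in day 6 OE, against 265 and 251 in day 2 OE. It fell by 0.90 in OE cells (SE 0.12, adjusted p = 0.0006) and by 0.46 in EV cells (SE 0.12, adjusted p = 0.0244), and it shares exon sequence with the antisense gene Cog4. Sf3b1, the SF3b subunit that clasps the branch point, had a positive estimate in OE cells, at 126 and 113 FPKM at day 6, against 70.1 and 75.2 at day 2, without passing the threshold (0.71, SE 0.26, adjusted p = 0.0619). In EV cells Sf3b1 stood at 70.2 and 77.6 FPKM at day 6, against 65.4 and 81.1 at day 2, and these overlapped.

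Of the 3 U2af genes, U2af1 fell in EV cells (-0.38, SE 0.11, adjusted p = 0.0342), at 315 and 319 FPKM at day 6, against 405 and 419 at day 2. In OE cells U2af1 stood at 352 and 326 at day 6, against 458 and 385 at day 2 (adjusted p = 0.0569), and 0 of the 3 passed the threshold there. With D2_dTAG replicate 1 left out, 2 of 3 were lower in EV cells and 3 of 3 in OE cells. U2af2, which reads the pyrimidine tract, stood at -0.16 in EV cells and -0.54 in OE cells, neither called.

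Among the Prpf genes, 3 of 13 fell in EV cells and 4 of 13 in OE cells. Leaving out D2_dTAG replicate 1 gave 5 lower and 1 higher in EV cells, and 6 lower and 2 higher in OE cells. Prpf31, a protein of the U4/U6 particle that is mutated in a human retinal dystrophy, had the lowest adjusted p of the members in both lines. It stood at 41.2 and 36.3 FPKM in day 6 OE, against 114 and 100.4 in day 2 OE. It stood at 37.4 and 41.8 in day 6 EV, against 87.7 and 78.0 in day 2 EV. All 4 day 6 values were under the lowest day 2 value, 61.9 FPKM in D2_dTAG replicate 1. Prpf31 fell by 1.45 in OE cells (SE 0.12, adjusted p = 4.57e-05) and by 1.05 in EV cells (SE 0.12, adjusted p = 0.000452). Prpf3, also of the U4/U6 particle, and Prpf19, a ubiquitin ligase of the spliceosome, fell in both lines, by 0.62 and 0.64 in OE cells and by 0.35 and 0.50 in EV cells. Prpf8, the core protein of the U5 particle, fell in OE cells by 0.40 (adjusted p = 0.0231) and stood at -0.24 in EV cells (adjusted p = 0.149). Prpf38a was not called, at -0.09 in OE cells and -0.05 in EV cells.

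SR proteins fell in 3 of 11 cases in EV cells (27.3%) and in 2 of 11 in OE cells (18.2%, near the 14.7% of all genes). The fit without D2_dTAG replicate 1 had 6 lower and 1 higher in EV cells, and 3 lower and 1 higher in OE cells. Srsf1, the founding SR protein, stood at 24.2 and 25.8 FPKM in day 6 OE, against 50.3 and 48.1 in day 2 OE. It stood at 16.5 and 23.9 in day 6 EV, against 54.3 and 55.1 in day 2 EV. It fell by 0.95 in OE cells (SE 0.26, adjusted p = 0.0192) and by 1.41 in EV cells (SE 0.26, adjusted p = 0.00404), the largest EV change among the members, with no overlap with any day 2 library. The OE call was lost without any 1 of the 4 OE libraries (adjusted p = 0.0737 to 0.106). Srsf6 fell in both lines, by 0.74 in OE cells and by 0.85 in EV cells. The most abundant SR gene, Srsf5, stood at 0.11 in OE cells and -0.02 in EV cells.

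Of the 20 hnRNP genes, 6 fell in EV cells, against 10.5% of all genes, while in OE cells 3 fell and 1 rose, with 14.7% of all genes lower, so that the OE share was near that background. The fit without D2_dTAG replicate 1 had 10 lower and 1 higher in EV cells, and 7 lower and 1 higher in OE cells. Hnrnpa1 stood at 378 and 352 FPKM in day 6 OE, against 701 and 719 in day 2 OE. In EV cells it stood at 458 and 508 at day 6, against 688 and 856 at day 2. It fell by 0.96 in OE cells (SE 0.12, adjusted p = 0.000404) and by 0.67 in EV cells (SE 0.12, adjusted p = 0.00426), with no overlap between days. Hnrnpm and Hnrnpdl also fell in both. Hnrnpu, a nuclear scaffold protein, stood at 170.4 and 250.3 FPKM in day 6 EV, against 478 and 437 in day 2 EV (-1.14, SE 0.25, adjusted p = 0.00854). In OE cells Hnrnpu stood at 294 and 297 at day 6, against 475 and 487 at day 2 (-0.70, adjusted p = 0.0527). Hnrnpab, an RNA chaperone that also binds DNA, stood at 77.4 and 83.4 FPKM in day 6 EV, against 214 and 176 in day 2 EV (-1.26, SE 0.25, adjusted p = 0.00577). Hnrnpll, known in lymphocytes for repressing exons of the CD45 gene, stood at 11.96 and 17.3 FPKM in day 6 EV, against 26.5 and 29.0 in day 2 EV (-0.90, adjusted p = 0.0316). The Hnrnpu, Hnrnpab and Hnrnpll calls were lost without D6_EV replicate 1 (adjusted p = 0.0909, 0.0526 and 0.232) and without D2_EV replicate 1 (adjusted p = 0.0657, 0.0562 and 0.107). The Hnrnpll call was also lost without D2_EV replicate 2 (adjusted p = 0.149). Hnrnpu and Hnrnpab overlap exons of Cox20 and Phykpl on the other strand.

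Hnrnph3, a relative of hnRNP H that binds G-rich RNA, was the member that rose. It stood at 26.5 and 25.6 FPKM in day 6 OE, against 13.5 and 11.8 in day 2 OE (0.98, SE 0.18, adjusted p = 0.00242). In EV cells it stood at 19.0 and 21.9 at day 6, against 12.6 and 16.6 at day 2 (0.47, adjusted p = 0.0832). The day 6 values were the higher ones in both lines, though the DMSO libraries, at 19.7 and 19.8, reached the EV day 6 range. Hnrnph3 overlaps exons of the antisense gene Rufy2.

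Other spliceosome genes were counted against the same background, 14.7% lower and 17.5% higher over all genes in OE cells, and 10.5% lower and 13.3% higher in EV cells. Of 46 further core proteins 20 fell and 2 rose in OE cells, and 18 fell and 0 rose in EV cells. The leading falls were Isy1 (-1.34), Dhx38 (-1.13) and Txnl4a (-1.08) in OE cells, and Phf5a (-1.04), Sart1 (-0.87) and Dhx38 (-0.79) in EV cells. Of 16 genes for snRNP assembly 9 fell in OE cells, led by Gemin4 (-1.41), and 7 fell in EV cells, led by Ncbp2 (-0.81). Exon junction genes fell in 3 of 9 cases in OE cells and 4 of 9 in EV cells. Of 6 kinases that phosphorylate SR proteins 0 fell, and Clk3 rose in both lines, at 65.8 and 63.1 FPKM in day 6 OE, against 28.4 and 27.4 in day 2 OE. Clk1 and Clk4 rose in OE cells by 0.83 and 0.80. Of 39 other regulators 8 fell and 2 rose in OE cells, and 7 fell and 0 rose in EV cells. Among them the epithelial factors Esrp1 and Esrp2 fell in both lines, Esrp2 with estimates of -2.57 in OE cells and -2.697 in EV cells, and Mbnl2 rose in OE cells (1.39). Of the 7 genes with Snrnp symbols 2 fell and 1 rose in OE cells, and 0 were called in EV cells. Without D2_dTAG replicate 1 the further core proteins held 29 lower and 3 higher in OE cells and 26 lower in EV cells, and the regulators 17 lower in each, with 5 higher in OE cells and 1 in EV cells.

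OE against EV compares cells with more and with less Tex10 RNA, and the cells differed in other genes too. Of the 8 germ cell-like markers Nanos3 was lower in OE at day 2 (-1.59, adjusted p = 0.0462), and the other 7 were not called. At day 2 no member was called (0 of 67), while 0.846% of all genes were (0.44% higher and 0.406% lower), and 6 members (8.96%) had an unadjusted p below 0.05, all higher, against 12.3% of all genes in either direction. The median difference of the members was 0.10, against 0.04 over all genes tested, and 50 of 67 estimates (74.6%) were positive, against 55.3% of all genes. Both OE libraries were above both EV libraries for 27 members, against 31.1% of all genes, and below for 2, against 22.6%. With quantile normalization 35 estimates were positive and the median was 0.02. The lowest p belonged to Prpf3, at 90.1 and 79.7 FPKM in day 2 OE, against 65.4 and 67.9 in day 2 EV (0.34, SE 0.11, adjusted p = 0.2), and to Prpf31, at 114 and 100.4, against 87.7 and 78.0 (0.37, SE 0.12, adjusted p = 0.226). Without D2_dTAG replicate 1, 7 members were called higher, Prpf3 and Prpf31 among them (adjusted p = 0.0377 and 0.0428), and 14% of all genes were called.

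At day 6, 1 of 67 members was called, while 3.72% of all genes were (1.92% higher and 1.79% lower), and 11 members (16.4%) had an unadjusted p below 0.05, against 18% of all genes. Srsf11, an SR-related protein, stood at 84.8 and 75.8 FPKM in day 6 OE, against 45.9 and 56.2 in day 6 EV (0.65, SE 0.14, adjusted p = 0.0344). The EV pair was the low one: all 8 day 2 libraries lay between 61.6 and 77.7 FPKM. The call was lost without any 1 of the 4 libraries compared (adjusted p = 0.106 to 0.272). Without D2_dTAG replicate 1, 15 members were higher and 2 (Hnrnpa1 and Sf3b5) lower, and 25.3% of all genes were called. The median difference of the members was 0.15, against 0.05 over all genes. It was 0.30 over the hnRNPs, 0.24 over the SR genes, 0.15 over the Prpf genes, 0.10 over the Snrp genes, -0.03 over U2af and -0.08 over SF3a and SF3b. Both OE libraries were above both EV libraries for 32 members, against 39.3% of all genes, and below for 9, against 29.5%. All 11 SR genes had positive estimates. Median-ratio scaling called 1 member higher and 1 lower. Other genes differed too. Of 8 germ cell-like markers Dppa3 (1.24) and Kit (1.08) were higher in OE. Of 7 pluripotent markers Nanog (0.65) was higher and Zfp42 (-0.83) lower. Of 46 further core proteins Cdc5l (0.63) was higher and Dhx16 (-0.56) lower. Ptbp1 (0.71) of 39 regulators and Magohb (0.86) of 9 exon junction genes were higher, and Gemin4 (-0.68) of 16 assembly genes was lower. The part of the markers in the splicing levels was not tested.

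**Figure D4:**
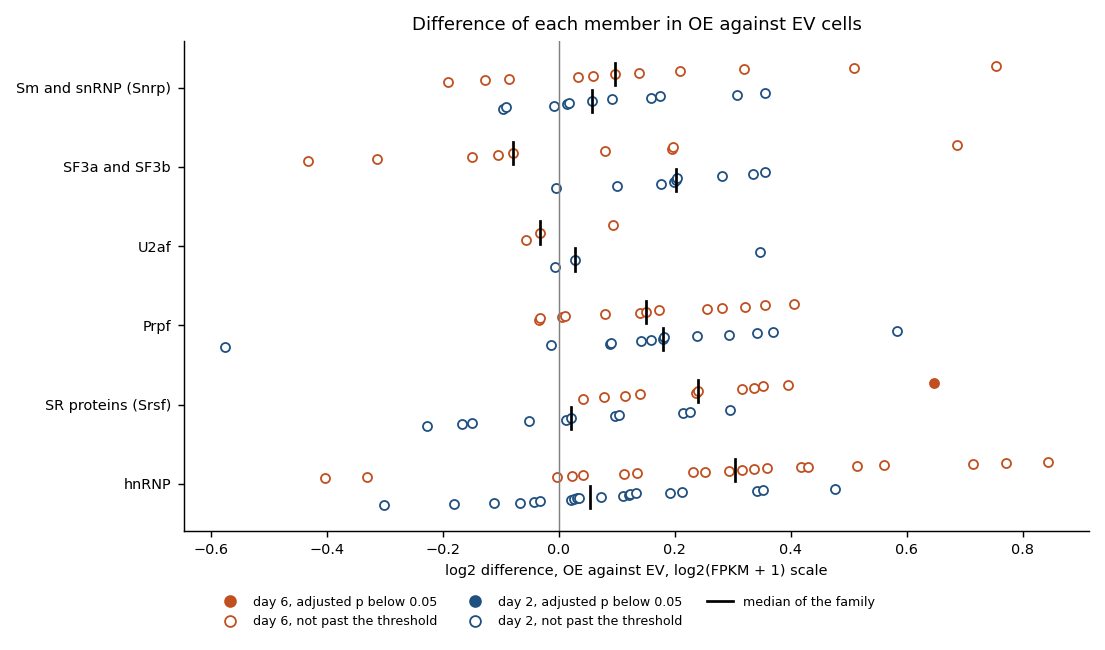
Log2 difference of each member in OE against EV cells (horizontal axis, log2(FPKM + 1) scale) by family, with day 6 above day 2 in each row. The filled point is Srsf11 at day 6 (0.65), and strokes are family medians, 0.30 for the hnRNPs at day 6 and 0.05 at day 2.

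The OE difference at day 6 minus that at day 2 equals the day change of OE cells minus that of EV cells, and 0 of 67 members passed its test, against 0.232% of all genes (0.0663% higher and 0.166% lower); 7 members (10.4%) had an unadjusted p below 0.05, against 10.8% of all genes. Snrpb, at -0.55 (SE 0.17, adjusted p = 0.257), and Sf3b5, at -0.49 (SE 0.17, adjusted p = 0.312), had the lowest p. Sf3b5 stood at 292 and 287 FPKM in day 6 OE, against 365 and 355 in day 6 EV, and at 505 and 458 in day 2 OE, against 434 and 417 in day 2 EV. For Sf3b5 OE was thus under EV at day 6 and over it at day 2, with no overlap on either day. SF3a and SF3b estimates were negative for 8 of 9 genes, and SR estimates were positive for 11 of 11. Without D2_dTAG replicate 1, 8 members were called (Hnrnpab, Hnrnpll, Sf3b1, Snrpd1, Snrpf and Srsf11 higher, Sf3b3 and Sf3b5 lower), while 11.1% of all genes were.

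With dTAG13, 4 of 67 members were called against DMSO (5.97%), while 12.2% of all genes were, 8.21% lower and 4.01% higher. Hnrnpl, which binds CA-rich elements, fell, at 32.4 and 45.8 FPKM with dTAG13, against 75.7 and 71.8 with DMSO (-0.92, SE 0.15, adjusted p = 0.00982). Sf3a2, an SF3a subunit, fell, at 2.13 and 8.51 FPKM, against 25.8 and 19.3 with DMSO (-2.10, adjusted p = 0.0161); its exons overlap the antisense gene Plekhj1. U2af2 fell, at 15.3 and 27.2 FPKM, against 36.4 and 37.6 with DMSO (-0.83, adjusted p = 0.0357). In all of these D2_dTAG replicate 1 was the lower of the dTAG13 pair, and both were under both DMSO libraries. Prpf38a rose, at 125 and 101 FPKM with dTAG13, against 85.7 and 84.1 with DMSO (0.40, adjusted p = 0.0458), with no overlap. Without D2_dTAG replicate 1 the estimates were -0.68 for Hnrnpl (adjusted p = 0.00577), -1.29 for Sf3a2 (adjusted p = 0.00321), -0.43 for U2af2 (adjusted p = 0.0273) and 0.25 for Prpf38a (adjusted p = 0.111). The 4 calls were lost when either DMSO library was left out, which leaves a single DMSO library. The share of all genes called in those fits is not given here. U2af2 was also lost under median-ratio scaling (adjusted p = 0.0964) and quantile normalization (adjusted p = 0.083); with each of these 2 members were called higher and 2 lower.

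The dTAG13 libraries lay on opposite sides of DMSO for many members. In D2_dTAG replicate 1, 35 members were above both DMSO libraries and 24 below. In D2_dTAG replicate 2, 7 were above and 56 below (83.6%), against 61.3% below among all genes. For 29 members (43.3%) replicate 1 lay above and replicate 2 below both DMSO libraries, against 23.1% of all genes. The median over the members, relative to the DMSO mean, was 0.11 in replicate 1 and -0.29 in replicate 2, against -0.08 and -0.17 over all genes. The split was widest among the hnRNPs, where replicate 2 was below in 19 of 20 and replicate 1 above in 14. Their summed level was 3908 and 2602 FPKM with dTAG13, against 3290.4 and 3403 with DMSO. Srsf2, an SR protein whose exons overlap Mettl23 and Mfsd11 on the other strand, stood at 166 and 23.6 FPKM with dTAG13, against 37.1 and 91.1 with DMSO. Prpf40b, tied to U1 at the start of the intron, was listed at 0 in replicate 1 and at 7.92 in replicate 2, against 8.55 and 8.68 with DMSO. It was the only member listed at 0 in any of the 12 libraries. Both dTAG13 libraries were below both DMSO libraries for 20 members, against 34.7% of all genes, and above for 4, against 13.8%. Without replicate 1, 18 members fell and 0 rose, with a median of -0.29 against -0.17 over all genes, while 23.3% of all genes were called (17% lower). That estimate rests on a single dTAG13 library, assumed to vary like the other groups. Without replicate 2 the median over the members was 0.11, against -0.08 over all genes, which rests on a single dTAG13 library as well. Markers of other cells differed too: all 4 neural markers in the table were called, Neurod1 higher (2.34) and Ncam1 (-1.11), Pax6 (-0.97) and Tubb3 (-0.62) lower, and so they were without replicate 1. Neural markers summed to 54.6 and 66.0 FPKM with dTAG13, against 82.5 and 79.4 with DMSO. Germ cell-like markers differed as well: of 8, Dppa3 (0.96) and Tfap2c (0.68) were called higher, and Dnd1 (-0.65) and Prdm14 (-0.53) lower. Of the 8 estimates 6 were negative. Without replicate 1 the 4 called markers stood at 0.90, 0.48, -0.59 and -0.66 in the same order, and Tfap2c lost its call. Of the others, Kit then stood at -0.63, Prdm1 at -0.61, Itgb3 at -0.12 and Nanos3 at 0.11. Of the 2 mesoderm markers tested, Hand1 was higher with dTAG13, at 7.94 and 10.7 FPKM, against 4.16 and 2.88 with DMSO. Eomes went the other way without being called, at 0 and 1.47 FPKM, against 2.14 and 1.81 with DMSO. Its estimate was -0.92, and -0.27 without replicate 1. Of the 7 pluripotent markers Esrrb (-0.89) and Sall4 (-0.72) were lower, and 2 had positive estimates, the highest being Klf4 (0.39, not called). Without replicate 1 Esrrb stood at -0.55, Sall4 at -0.44 and Klf4 at -0.35, and Sall4 lost its call. Their part in the splicing levels was not tested. Which dTAG13 library is closer to the treatment's effect cannot be told apart with these 2.

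**Figure D5:**
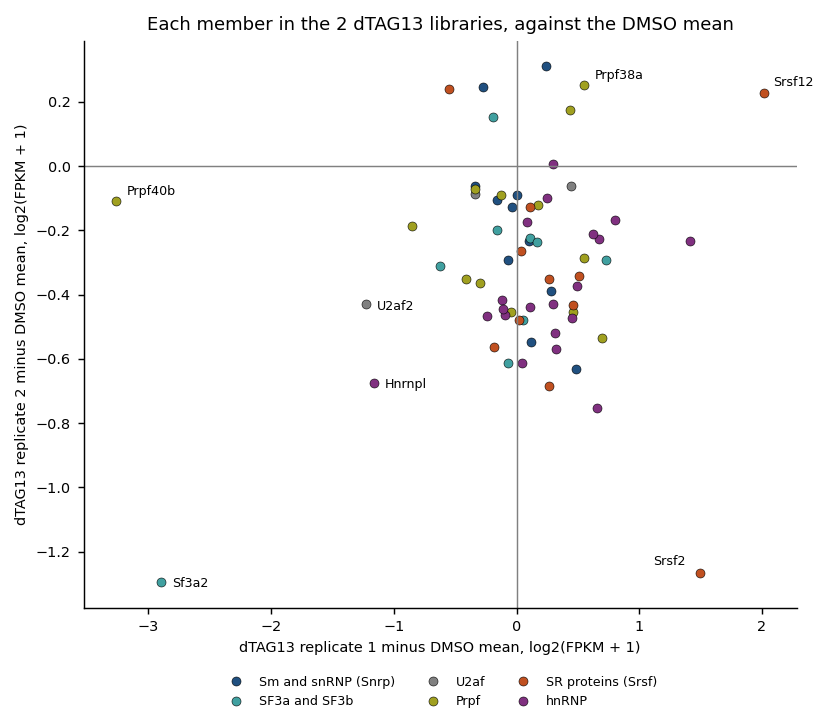
Each of the 67 members as its level in dTAG13 replicate 1 (horizontal axis) and replicate 2 (vertical axis) minus the DMSO mean, on the log2(FPKM + 1) scale. Most points lie under 0 on the vertical axis (56 are below both DMSO libraries in replicate 2), while they spread to both sides of 0 on the horizontal axis; Prpf40b is at the far left because it was listed at 0.

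The other splicing genes are read against the same 8.21% lower and 4.01% higher of all genes with dTAG13 (17% lower and 6.34% higher without replicate 1). Of the 46 further core proteins 2 rose (Rbm17 at 1.05 and Dhx16 at 0.67) and 3 fell (Ddx39b, Sf1 and Cdc5l), and without replicate 1 there were 2 higher and 7 lower, these 5 genes among them. Rbm17, a protein of the early spliceosome, stood at 467 and 380.2 FPKM, against 204 and 201 with DMSO, and its estimate without replicate 1 was 0.91 (adjusted p = 8.49e-05). Snrnp70, the U1 protein that binds the stem of U1 RNA, fell, at 24.3 and 64.3 FPKM, against 107 and 90.6 with DMSO (-1.29, adjusted p = 0.0327). Both dTAG13 libraries were under both DMSO libraries, and without replicate 1 the estimate was -0.60 (adjusted p = 0.00398). Of 39 regulators 6 fell, led by Esrp1 (-1.31), Srrm1 (-1.23) and Khsrp (-1.14), and 13 were lower without replicate 1, where these 3 stood at -1.22, -0.96 and -0.76. Of the 16 assembly genes 2 fell (Coil and Smn1), and 8 were lower without replicate 1. Of the 9 exon junction genes 2 fell (Acin1 and Magohb), and 3 were lower without replicate 1. Of the 6 kinases Clk3 rose (0.62), and without replicate 1 there were 1 higher (Clk3 at 0.45) and 2 lower.

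DMSO against EV sets the day 2 controls beside each other. Here 0 of 67 members were called, against 0.39% of all genes, with a median of -0.03, against 0.03 over all genes, and 2 members had an unadjusted p below 0.05 (2.99%), against 8.92% of all genes. The controls differed in Tex10 itself, which was lower with DMSO, at 61.7 and 56.8 FPKM, against 119 and 145 in EV (-1.13, SE 0.15, adjusted p = 0.0104). The mesoderm marker Hand1 was higher with DMSO, at 4.16 and 2.88 FPKM, against 0.387 and 0.0481 in EV (1.89, adjusted p = 0.0104). Over all genes the estimates ran from -5.39 (Eif2s3y) to 2.43 (Rnf187). What sets the controls apart was not tested. Both DMSO libraries were above both EV libraries for 9 members, against 29.5% of all genes, and below for 20, against 22.7%. Srsf9, an SR protein, stood at 20.8 and 28.4 FPKM with DMSO, against 14.9 and 16.9 in EV (0.59, SE 0.24, adjusted p = 0.497). Hnrnph3 stood at 19.7 and 19.8, against 12.6 and 16.6 in EV (0.42, SE 0.18, adjusted p = 0.521). Without D2_dTAG replicate 1, 3 members were called (Srsf2 higher, Hnrnpf and Hnrnph2 lower), while 8.08% of all genes were. DMSO and EV libraries serve as controls above, so these values stand beside the other comparisons and are not independent of them.

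By genome position (GENCODE M21, GRCm38) the members lie on 18 chromosomes, with at most 8 on one, chromosome 7. Prpf31 is at chr7:3629985-3642486, Snrpb at chr2:130171414-130179403, Srsf1 at chr11:88047373-88053755, Hnrnpa1 at chr15:103240432-103246692 and Sf3b4 at chr3:96172332-96177564, all protein-coding genes measured over their exons. Exons of 12 members overlap those of a protein-coding gene on the other strand and 4 those of one on the same strand. Whether counting used strand is not given in the sources used here, so such reads cannot be told apart, and reads shared with near-identical pseudogenes, which Sm and hnRNP genes are known for, may have been divided.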

How the data were processed

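Poly(A) RNA of sorted mouse PGCLCs was sequenced in 12 libraries, per the labels. Per the submitters' processing notes, the tools were FastQC 0.10.1, Trim Galore 0.6.3, cutadapt, STAR 2.7.6a and Cufflinks 2.2.1, with build mm10. The deposited table holds FPKM computed by the authors with 1 added, as its digits show: 90.1% of entries between 1.1 and 2 carry at least 7 digits, against 0% between 2 and 10. The 1 was subtracted. The table gives no counts, so depth is unknown and low levels have no interval.

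Genes with FPKM of at least 1 in at least 2 libraries (12059 of 12955) were fitted with limma 3.58.1 (R 4.3.3) as log2(FPKM + 1), in a single model of the 6 labelled groups with a trended prior (6 residual and 3.86 prior degrees of freedom). Benjamini-Hochberg adjusted p-values run over all of them, and SE is the standard error the model gives a log2 change. The analysis was tested on simulated data. Python 3.11.15, pandas 2.3.3, numpy 2.4.6 and matplotlib 3.10.9 were used. A title that spells the compound otherwise was placed by its treatment field.

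The members, the other gene lists and the tests were chosen with earlier results of these data known. Named members were, per comparison, up to 6 called in each direction by size of change, or the 2 with the lowest p where none was called. To these came each family's most abundant and most variable member, the lowest member and any listed at 0; further names were chosen after their values were seen. Other lists name up to 3 called genes each. Of these lists Srpk3, Celf2, Nova1, Nova2 and Srrm4 were not in the table. No label says whether replicate numbers pair samples. Same-numbered deviations correlated at -0.135 to 0.252, highest for day 2 EV with day 6 EV, which cannot exclude pairing. Alternatives covered the pseudocount, filter, scaling, block, weights, trend, threshold, groups fitted and each library left out.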

Additional observations from a re-analysis of the deposited data

How the results depend on the processing

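Counts and medians were judged by different rules, a ratio for counts and an absolute distance for medians, so their stability cannot be compared. The distance exceeds some of the medians, so a median can change sign and still be taken as stable. That of dTAG13 did so, at -0.074 in the main fit and 0.008 with median-ratio scaling. Under alternatives, 177 of the counts and medians stayed within 1.5 times or within 1 SD (0.129), and 39 did not; of the values for named members 338 kept their side of the threshold, 43 lost it and 7 gained it, and none changed sign. With sample quality weights the called members numbered 40 (day 6 against day 2, OE), 38 (EV), 22 (OE against EV, day 6), 2 (day 2), 10 (the difference) and 0 (dTAG13). With only the groups compared they numbered 39, 39, 19, 2, 7 and 0 in the same order. Without a trend they numbered 15 (day 6 against day 2, EV) and 0 (OE against EV, day 6). For OE against EV at day 6 both scalings gave 2, with 1 higher and 1 lower under median-ratio scaling. An adjusted p below 0.1 gave 7 for dTAG13. The share of all genes called under these settings is not given here, so these counts are not read as results about the members. The median of day 6 against day 2 in OE was -0.152 with quantile normalization (20 of 67 positive, against 12), and that of dTAG13 was 0.008 with median-ratio scaling (35 of 67 positive, against 20). Quantile normalization moved the dTAG13 median of all genes to -0.0019, against -0.127. For DMSO against EV 21 of 67 were positive with median-ratio scaling, against 27.

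Leaving out 1 library gave 6 to 42 calls for day 6 against day 2 in EV, 14 to 37 in OE, 0 to 17 for OE against EV at day 6, 0 to 7 at day 2, 0 to 8 for the difference, 0 to 30 for dTAG13 and 0 to 3 for DMSO against EV. The medians ran from -0.42 to -0.307, -0.375 to -0.233, 0.0845 to 0.248, 0.0549 to 0.175, -0.0043 to 0.135, -0.293 to 0.108 and -0.083 to 0.0044. The share of all genes called moved with the library left out too, as given above for D2_dTAG replicate 1. The ranges of calls are therefore not read as results about the members. The cause of these ranges was not tested.

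Whether the replicate numbers pair the samples is not known. With the replicate block 0 members were called for OE against EV at day 6 (Srsf11 at an adjusted p of 0.0533) and 3 for dTAG13 (Prpf38a at 0.058). Calls numbered 24 for day 6 against day 2 in EV and 22 in OE. Unknown depth limits statements on low members such as Srsf12.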
